A study of Mus musculus with 8 samples.

Results

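The cytosolic ribosomal protein genes of mouse neocortex were examined probe by probe on 8 one-colour Agilent microarrays. Members were all gene probes whose RefSeq accession maps to a symbol of the Rpl or Rps pattern, to Rplp0, Rplp1 or Rplp2, or to Rpsa, without the Rps6k kinases. The rule used names only and no measured value. It found 171 probes of 83 genes among 39429 gene probes: 112 probes of 52 large-subunit genes and 59 probes of 31 small-subunit genes, with up to 7 probes for 1 gene. Each probe was kept apart, since probes of the same gene can differ.

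RNA came from the neocortex of ICR mouse embryos at embryonic day 16. The V/SVZ samples (4) were the ventricular and subventricular zones, which line the ventricle and hold dividing progenitors. The CP samples (4) were the cortical plate, where postmitotic neurons settle. Both were cut by hand, neither carried a genetic change or a treatment in the labels, and each sample was a mixture of all cells in its piece of tissue. The labels do not tie the samples to animals; the spread behind every p-value is that among these 4 samples per tissue and may be technical only. The 4 V/SVZ arrays shared slide 1 and the 4 CP arrays slide 2, so tissue and slide cannot be told apart for any difference given here.

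Between 58.4% and 62.9% of gene probes were well above background per array, and arrays of the same tissue correlated at 0.992 or more across probes. The dissection was checked on marker genes. All 10 probes of 7 germinal-zone genes were higher in V/SVZ (median log2 difference 5.26), and all 10 probes of 6 cortical-plate genes were higher in CP (median -2.71). Markers of other cells moved with tissue as well. Summed microglial signal, over 13 tested probes, was 24725 to 35503 in V/SVZ and 8721 to 11423 in CP, with 10 probes higher in V/SVZ and 1 in CP. Summed erythroid signal was 789783 to 969747 in V/SVZ and 634202 to 708144 in CP, with 7 of 10 tested probes higher in V/SVZ and 0 in CP. Of 8 endothelial probes 2 were higher in V/SVZ and 0 in CP, of 6 mural probes 2 and 0, of 6 meningeal probes 1 and 2, of 2 choroid plexus probes 1 and 1, of 9 interneuron probes 3 and 6, and of 5 oligodendrocyte precursor probes 2 and 0. Their part in the results below was not tested. In bulk tissue, fewer cells of a type and less RNA per cell cannot be told apart.

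Ribosomal proteins assemble with ribosomal RNA into a small subunit, which reads the messenger RNA, and a large subunit, which joins amino acids. Their messenger RNAs are among the most abundant in growing cells. Most begin with a cytosine followed by a run of pyrimidines, the terminal oligopyrimidine motif, through which the mTOR kinase controls their translation. A few of the genes have paralogs, such as Rps27l beside Rps27 and Rpl22l1 beside Rpl22, whose proteins can take the partner's place in the ribosome.

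RefSeq windows around the transcription start (GRCm38.p6, 40 bases before and 20 after it) are shown for paralogs and partner genes, and for the genes with the most discordant probes, that the results turn on. Capitals mark a run of C followed by at least 4 pyrimidines that overlaps the region within 20 bases of the start; windows without capitals have none.
Rps27l, first listed start, chr9:66946046-66946105 (+ strand): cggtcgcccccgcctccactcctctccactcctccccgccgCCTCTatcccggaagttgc
Rps27, chr3:90213629-90213688 (- strand): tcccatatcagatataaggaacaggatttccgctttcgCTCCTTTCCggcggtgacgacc
Rpl22l1, chr3:28805468-28805527 (+ strand): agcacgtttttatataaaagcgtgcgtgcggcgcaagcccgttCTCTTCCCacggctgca
Rpl22, first listed start, chr4:152324396-152324455 (+ strand): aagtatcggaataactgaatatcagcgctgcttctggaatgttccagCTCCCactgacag
Rpl22, second listed start, chr4:152325686-152325745 (+ strand): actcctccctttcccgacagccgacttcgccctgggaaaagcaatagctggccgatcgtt
Rpl7l1, chr17:46782637-46782696 (- strand): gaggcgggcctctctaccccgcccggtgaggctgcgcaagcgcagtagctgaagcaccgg
Rps6, chr4:86857348-86857407 (- strand): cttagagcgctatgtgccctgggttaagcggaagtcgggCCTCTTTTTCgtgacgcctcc
Rpl15, chr14:18270967-18271026 (- strand): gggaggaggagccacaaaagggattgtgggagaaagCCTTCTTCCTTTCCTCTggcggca
Rps15a, chr7:118116128-118116187 (- strand): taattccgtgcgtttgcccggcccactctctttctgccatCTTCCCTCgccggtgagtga
Rps6, Rps27, Rpl15 and Rps15a carry runs at or across the start, the longest of these being in Rpl15, whereas Rpl7l1 and the second Rpl22 start carry none. Rps27l also has a second listed start, not shown, which carries none. Windows were found for 62 of the 83 genes. A start run was present in 49 of the 62 genes (79.0%), against 49.9% of 27025 genes in the same table. In the 300-base windows of the same table, 250 bases before to 50 after the start, and on both strands, CACGTG was found in 9.68% of the member genes and 8.09% of all genes, and CCGGAAGT in 19.4% and 4.31%. These motifs were chosen after the windows had been seen. A match is a description of letters and not of a site in use.

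Of the 171 probes, 166 (80 genes) were tested, having been well above background on each of the 4 arrays of V/SVZ, of CP or of both, and 165 on all 8 arrays. The exception is a probe of Rpl6, described with its gene, that entered the test only through CP, where it is high. The other 5 were not well above background on any array, among them both probes of Rpl10l and the probes of Rpl3l and Rpl39l. Rpl3l is known from muscle, and Rpl10l and Rpl39l from the testis. The scaled signals of the 5 ran from 5.36 to 28.3 intensity units.

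Ribosomal protein transcripts differed little between the tissues. After scaling each array to its 75th percentile, 43 of the 166 tested probes were higher in V/SVZ, with 25 higher in CP (limma, Benjamini-Hochberg adjusted p under 0.05 over all 23858 tested probes), together 41.0%. Over all tested probes 79.7% were called, 35.3% towards V/SVZ and 44.4% towards CP. The median log2 difference, V/SVZ minus CP, was 0.02 over the members and -0.09 over all tested probes, and the median absolute difference was 0.10 over the members and 0.55 over all. The members' lower and upper quartiles were -0.08 and 0.12, and their whole range was -2.43 to 1.34. Differences lay within 0.2 in either direction for 122 members (73.5%), against 22.5% of all probes. The 95% interval lay wholly inside that range for 79 members (47.6%), against 8.08% of all probes. Only 3 members were called and at least 2-fold apart, against 30.2% of all probes. The samples of the tissues did not overlap for 72 members (43.4%), against 75.5% of all probes. The Rpl6 probe that entered the test only through CP is counted in the 166, the 25 and the 72. It is also in later counts over all tested members. With only probes detected on all 8 arrays fitted, 46 of 165 members were higher in V/SVZ, against 34.4% of all such probes. The number higher in CP was 24, against 44.5%.

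Member probes are bright, so they were also set beside probes of like signal, a comparison chosen after the values were seen. Of the 459 tested probes at least as bright as the median member, members included, 54.5% were called, 3.7% were called and at least 2-fold apart, and 67.1% lay within 0.2. The 83 members in that range had 18 probes higher in V/SVZ, with 12 higher in CP (36.1%), and 85.5% lay within 0.2. The dimmer 83 had 25 higher in V/SVZ, with 13 higher in CP, and held all 3 differences of 2-fold or more. Both subunits contributed calls in both directions: 27 higher in V/SVZ, with 17 higher in CP of 107 large-subunit probes, and 16 and 8 of 59 small-subunit probes.

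The split between tissues depended on how the arrays were scaled. The 43 and 25 calls became 40 and 6 with median scaling, 61 and 17 with the percentile taken over probes detected on all arrays, 68 and 15 with quantile normalization, 66 and 16 with cyclic loess, 122 and 5 without scaling, and 21 and 34 when arrays were scaled on the 7 spike-in RNAs. The shares of all tested probes higher in V/SVZ and in CP moved too, from 35.3% and 44.4% in the main setting. They were 36.2% and 37.0% with median scaling, and 37.8% and 41.7% with the percentile over detected probes. Quantile normalization gave 37.7% and 41.6%, and cyclic loess 40.4% and 38.4%. The shares were 45.8% and 32.2% without scaling, and 31.0% and 46.7% with spike-in scaling. The spike-ins differed by between -0.05 and 0.16 on the main scale before that scaling. The median of all probes shifted by 0.21 without scaling and by 0.10 with cyclic loess. Relative to the median of all probes, the member median was 0.11 in the main setting, 0.12 with quantile normalization and 0.05 with cyclic loess. Across the 6 other scalings, 26 member calls (15.7% of members, against 62.8% of all tested probes) held in the same direction, 21 higher in V/SVZ, with 5 higher in CP, of which 4 were on probes detected on all 8 arrays. Of the 26, 25 also held in every other alternative in which the probe was present. The Rpl6 probe that entered through CP is counted among these 25. It was absent from the fit of probes detected on all 8 arrays and from the authors' deposited log2 values. Neither alternative could therefore test its call.

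Among small-subunit genes, Rps27l had the largest difference towards V/SVZ. The gene is a p53-responsive paralog of Rps27. Its probe had scaled signals of 48677, 47552, 44254 and 49469 in V/SVZ, against 18845, 18249, 18567 and 19119 in CP. The samples did not overlap, and the log2 difference was 1.34 ± 0.04 SE (n = 4 per tissue here and throughout; limma adjusted p = 2.81e-08), a 2.54-fold higher signal in V/SVZ.

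Rps6, the small-subunit protein phosphorylated by S6 kinases, was higher in V/SVZ by all 3 of its probes, but not to the same extent. Probe A_55_P2008567 had 15399, 14535, 13305 and 14661 in V/SVZ, against 6961, 6499, 6684 and 6428 in CP. That is a log2 difference of 1.12 ± 0.05 SE (limma adjusted p = 2.54e-07). Probe A_55_P1963817 gave 0.26 ± 0.05 SE and probe A_55_P1955239 0.25 ± 0.04 SE, and every V/SVZ sample was above every CP sample on all 3. Probe A_55_P1963817 was far brighter than A_55_P2008567, at 160715 to 173513 on the CP arrays. The first probe differed from the others by 0.86 and 0.87 on the log2 scale (limma on probe differences, adjusted p = 2.32e-07 and 4.11e-07).

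Further small-subunit genes were higher in V/SVZ by less. Rps9, which lines the entry of the messenger RNA channel, had a difference of 0.22 ± 0.05 SE. Of the 2 Rps18 probes, A_55_P2135631 was called at 0.22 ± 0.06 SE and A_55_P2135632 was not, at 0.03 ± 0.05 SE. The calls of Rps9 and Rps18 held in every alternative.

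Rps7 and Rps21 were higher in CP. Rps7, which also binds the p53 regulator MDM2, had 85203, 98744, 96616 and 99937 in V/SVZ, against 130654, 126177, 121707 and 121083 in CP, a difference of -0.40 ± 0.06 SE (limma adjusted p = 0.000345). Rps21 had 30685, 37748, 41489 and 47276 in V/SVZ, against 51485, 50137, 50715 and 49658 in CP, a difference of -0.38 ± 0.12 SE (limma adjusted p = 0.0188). Neither set of samples overlapped, and the spread among V/SVZ samples was wide for Rps21. Without scaling neither gene was called, and Rps21 was also not called with median scaling or normexp.

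Among large-subunit genes, Rpl7l1, a relative of Rpl7 found in precursors of the large subunit, was 1.86-fold higher in V/SVZ. Its signals were 1273, 1280.3, 1244 and 1413 in V/SVZ, against 686, 631, 773 and 709 in CP (log2 difference 0.90 ± 0.07 SE, limma adjusted p = 6.16e-06). Rpl22l1, the paralog of Rpl22, had 73203, 68735, 64163 and 65159 in V/SVZ, against 44599, 45484, 40936 and 44170.1 in CP (log2 difference 0.63 ± 0.06 SE, limma adjusted p = 1.29e-05). In both, all V/SVZ samples exceeded all CP samples, and both calls held in every alternative.

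Rpl13a, known outside the ribosome for silencing translation of inflammatory transcripts, was higher in V/SVZ by all 3 probes, with differences of 0.50 ± 0.06 SE, 0.44 ± 0.06 SE and 0.19 ± 0.03 SE. Rpl28 (0.31 ± 0.05 SE) and 1 probe each of Rpl8 (0.29 ± 0.04 SE), Rpl27 (0.24 ± 0.04 SE) and Rpl24 (0.18 ± 0.03 SE) were also higher in V/SVZ in every alternative. These are structural proteins of the large subunit. On each of these probes the tissues did not overlap. The second probes of Rpl8 (0.16) and Rpl27 (0.20) were also called higher in V/SVZ, though not in every alternative. The second Rpl24 probe was not called (0.07 ± 0.05 SE), and the tissues overlapped on it.

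Rpl38, a protein that in mouse embryos is needed for translation of Hox transcripts, was higher in CP by both of its probes. Probe A_55_P1955059 had 258829, 251807, 247081 and 253972 in V/SVZ, against 303449, 308956, 302041 and 304426 in CP (log2 difference -0.27 ± 0.03 SE, limma adjusted p = 6.32e-05). Probe A_55_P2091308 gave -0.23 ± 0.03 SE. Rpl23a, which lies at the exit of the peptide tunnel, was the only other gene with several probes all called higher in CP, at -0.19 ± 0.04 SE and -0.23 ± 0.04 SE. The Rpl38 and Rpl23a calls were lost with median scaling and without scaling, and that of A_55_P1955059 also with normexp.

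Calls were counted by gene over the 165 probes detected on all 8 arrays, beside all named genes counted in the same way. Of the 49 genes with several such probes, all probes were called higher in V/SVZ for 8 (16.3%, against 26.1% of 3248 such genes on the array) and higher in CP for 2 (4.08%, against 33.9%). No probe was called for 15 genes (30.6%, against 8.87%), and some were called in 1 direction for 21 (42.9%, against 22.4%). Probes were called in opposite directions for 3 genes, Rpl22, Rpl39 and Rps15a (6.12%, against 8.74%). Of these, only Rpl22 had calls that held in both directions in every alternative. Of the 31 genes with a single such probe, 8 were higher in V/SVZ (25.8%, against 37.9% of 9311), 4 (Rpl35, Rpl37, Rps7 and Rps21) were higher in CP (12.9%, against 43.5%), and 19 were not called (61.3%, against 18.6%). Rpl35, a protein near the tunnel exit, gave -0.20 ± 0.07 SE, a call lost with median scaling, quantile normalization and cyclic loess.

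Probes of the same gene were compared directly, by testing the difference between them across the 8 arrays. Of 139 pairs, 45 differed (32.4%), against 50.4% of the 5368 such pairs on the array. Leaving out the 3 pairs that use the Rpl6 probe not detected on all arrays, 42 of 136 differed (30.9%), from 25 genes, against 49.8% of 4694 pairs chosen in the same way. In 7 of the 42, from 5 genes, the tissue differences were at least 0.5 apart on the log2 scale. Those 5 genes were Rps15a, Rpl22, Rpl15, Rps6 and Rps3. Probe positions and sequences were not used here, so which part of a transcript each probe reads is not given.

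The 2 probes of Rpl22, an RNA-binding large-subunit protein, went in opposite directions. Probe A_55_P2015989 had 147043, 143439, 127385 and 134072 in V/SVZ, against 96610.2, 95048, 92267 and 90859 in CP, a difference of 0.56 ± 0.05 SE. Probe A_52_P391718 had 22543, 22610.0, 20966 and 22071 in V/SVZ, against 41764, 39522, 41782 and 37420.1 in CP, a difference of -0.86 ± 0.05 SE. On neither probe did the tissues overlap, both calls held in every alternative, and the probes differed by 1.42 (limma adjusted p = 1.6e-07).

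Rps15a, a structural protein of the small subunit, had the largest disagreement. Probe A_52_P491433 had 145, 160.3, 174 and 135 in V/SVZ, against 849, 894, 771 and 796 in CP, a 5.4-fold higher signal in CP (log2 difference -2.43 ± 0.09 SE, limma adjusted p = 5e-08). Probe A_55_P1960775 was slightly higher in V/SVZ (0.15 ± 0.04 SE). This call did not hold across all other scalings, with a difference of 0.08 under spike-in scaling. It was also lost with normexp (0.09, limma adjusted p = 0.0651). The third probe, A_55_P2109943, was not called (-0.12 ± 0.16 SE); array V/SVZ 4 stood at 94249.7 against 152234 to 160164 on the other V/SVZ arrays, and without it the difference was 0.06.

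Rpl15, a core protein of the large subunit, was not called by probe A_55_P1990457, with 179557, 179439, 174211 and 195442 in V/SVZ, against 180134, 176804, 181706 and 179509 in CP (0.02 ± 0.04 SE, 95% interval -0.08 to 0.12). Probe A_66_P140976 had 21891, 18596, 17088 and 17417 in V/SVZ, against 40213, 36073, 33006 and 33089.7 in CP, a 1.9-fold higher signal in CP (-0.93 ± 0.10 SE, limma adjusted p = 4.01e-05). The probes differed by 0.95 (adjusted p = 0.000171 by limma). The tissues overlapped on the first and not on the second.

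Rpl6, a large-subunit protein, had 4 tested probes. A_55_P2043639 was dim, with 53.1, 46.2, 54.9 and 38.6 in V/SVZ, against 70.7, 88, 86.2 and 85.1 in CP. It was well above background on 2 V/SVZ and 4 CP arrays, and passed the filter through CP, so it is described here by these values alone. Its call towards CP is nevertheless included in the counts over all tested members. The other 3 had differences between 0.07 and 0.12, of which A_55_P1990859 was called, though not with spike-in scaling or normexp. Rps3, which lines the entry of the messenger RNA channel, was higher in CP by A_55_P2038237 (-0.55 ± 0.10 SE) and not called by A_51_P318640 (0.09 ± 0.05 SE). Rpl39, a small protein of the exit tunnel, had 1 probe called higher in CP (-0.17 ± 0.03 SE), 1 called higher in V/SVZ (0.19 ± 0.06 SE) and 1 not called (0.01 ± 0.04 SE); both calls were lost with normexp, and without scaling the first turned positive.

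Paralogs were set against their partners in the same way. Of 14 probe pairs over 5 such gene pairs, 10 differed. Pairs that share a probe are not separate observations: 1 Rps27l probe and 1 Rpl7l1 probe were each paired with 4 partner probes. No share over pairs of different genes on the whole array is given here for comparison. Rps27l differed from all 4 Rps27 probes, by 1.32 to 1.59 on the log2 scale. Rps27, a zinc-finger protein of the small subunit, was called higher in CP by 1 probe (-0.25 ± 0.08 SE), a call lost under 5 scalings or background settings, and not called by the other 3 (differences between -0.02 and 0.02).

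Rpl7l1 differed from all 4 Rpl7 probes, by 0.89 to 1.04. Rpl7 itself, a large-subunit protein, was called higher in CP by 2 probes (-0.14 ± 0.05 SE and -0.13 ± 0.04 SE) and not by the others (-0.10 ± 0.05 SE and 0.01 ± 0.04 SE). With replicate number as a block, A_55_P2073840 was no longer called (limma adjusted p = 0.0549).

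Rpl22l1 moved apart from Rpl22 probe A_52_P391718 by 1.49 (limma adjusted p = 7.02e-07). Against probe A_55_P2015989 the difference was 0.07 ± 0.04 SE and was not called. Whether the paralog and its partner differ thus rests on the Rpl22 probe chosen. Rpl36a, which was called higher in V/SVZ by 3 probes (0.11 to 0.38), differed from its paralog Rpl36al (0.05 ± 0.05 SE, not called) by 1 of 3 probes. The smallest of these Rpl36a calls was lost when any 1 of 7 arrays was left out, and was also not called with median scaling, spike-in scaling, normexp or no filter on dim probes. A second call, of A_55_P1956707 (0.23 ± 0.05 SE), was lost with normexp (0.10). The third, of A_55_P2019019, held in every alternative.

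Rps4x, which encodes a form of the small-subunit protein S4, and the related gene Rps4l were not called. The RefSeq record that the Rps4l probe cites is of a non-coding RNA. Rps4l had 2249, 1733, 1676 and 2254 in V/SVZ, against 1716, 1315, 1435 and 1839.6 in CP (0.33 ± 0.15 SE, 95% interval -0.01 to 0.66), and with the replicate block it was called (limma adjusted p = 0.00197). Rps4x had 90706, 89712, 87442 and 58110.1 in V/SVZ, against 94662, 92148, 95283 and 91115 in CP (-0.22 ± 0.14 SE); without array V/SVZ 4 the difference was -0.06. The pair did not differ at the threshold (0.54 ± 0.24 SE).

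The member probes with the highest signal differed little between the tissues, as bright probes on the array did in general. Of all tested probes at least as bright as the median member, members included, 67.1% lay within 0.2. Among the 5 brightest were Rps14, Rpl37, Rpl37a and Rplp0 (A_55_P2135098), the last being the scaffold of the stalk that recruits elongation factors. Rps14 had 387732, 426340.0, 430452 and 421925 in V/SVZ, against 433209, 460225, 443612 and 419790.0 in CP (-0.08 ± 0.05 SE). Of these 4, only Rpl37 was called, at -0.08 ± 0.03 SE, with an adjusted p of 0.0439 by limma and 0.0871 with the replicate block. Its sign turned with median scaling and without scaling. The Rpl37a difference was 0.03 ± 0.04 SE and that of Rplp0 -0.12 ± 0.06 SE. No gene spot was saturated, and the highest unscaled member signal was 471762.

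Nearest to 0 were Rplp2, an acidic protein of the stalk (-0.00091 ± 0.03 SE, 95% interval -0.08 to 0.08), Rpl34 probe A_55_P2029022 (0.0015 ± 0.04 SE, interval -0.10 to 0.10) and Rpl7a probe A_55_P2001347 (0.0016 ± 0.03 SE, interval -0.08 to 0.08). Rplp2 had 349957, 359938, 337277 and 337236 in V/SVZ, against 345557, 341907, 352296 and 345088 in CP. The tissues overlapped on all 3 probes. Across the alternatives each of the 3 values ran from -0.07 to 0.21, so none has a settled sign. All 3 were negative with spike-in scaling and were positive and called without scaling.

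Some differences were carried by single arrays. Array V/SVZ 1 lay at least 0.5 below its tissue on the log2 scale for 5 of 166 member probes, V/SVZ 4 for 2 and V/SVZ 3 for 1, and no CP array did so. The share of all tested probes that lay as far off is not given here, so these counts are not particular to the members. Rpl23, a large-subunit protein that also binds MDM2, read 106920.0 on V/SVZ 1 by probe A_55_P1961235, and its difference of -0.37 ± 0.16 SE (not called) was -0.19 without that array, and then called. For Rpl17 probe A_55_P2181084 the difference was -0.33 ± 0.19 SE, and -0.14 without V/SVZ 1. For Rps27a probe A_55_P2025174 it was -0.30 ± 0.19 SE, and -0.09 without it. The Rpl17 and Rps27a values were not called with or without V/SVZ 1.

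Among the 5 largest calls per direction were 2 with wide spread. Rpl14 probe A_51_P232858 had 8585, 8459, 4968 and 5341 in V/SVZ, against 5257, 5418, 3411 and 3414 in CP (0.63 ± 0.25 SE, limma adjusted p = 0.0458). On both slides arrays 1 and 2 were above arrays 3 and 4, and each V/SVZ array was above the CP array of its number. With the replicate block the adjusted p was 0.000117 by limma; without the block, the call was lost when V/SVZ 1, V/SVZ 2, CP 3 or CP 4 was left out, and with spike-in scaling, normexp or no filter on dim probes. The other Rpl14 probe was far brighter, with mean signals of 293165 in V/SVZ and 253490 in CP, and gave 0.21 ± 0.04 SE. Rps27a, encoded as a fusion with ubiquitin, had 69.2, 85.7, 103 and 144 in V/SVZ, against 140.3, 136, 162 and 143 in CP by probe A_55_P2025173 (-0.58 ± 0.21 SE, limma adjusted p = 0.0293). The tissues overlapped, and this call was lost without V/SVZ 1, V/SVZ 2, CP 1, CP 3 or CP 4.

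Ribosomal proteins whose names fall outside the pattern also had small differences. Rack1, a scaffold on the small subunit, had a difference of -0.18 ± 0.05 SE (limma adjusted p = 0.00756) and was called higher in CP. Fau (-0.07 ± 0.03 SE) and the Rps3a1 probes (-0.05 ± 0.08 SE and 0.04 ± 0.03 SE) were not called. The Rack1 call was lost with median scaling and quantile normalization, and without scaling Rack1 and Fau turned positive.

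Genes around the ribosome lay between the members and the whole array in their share of probes within 0.2 of 0: 38.8% of mitochondrial ribosomal protein probes, 33.8% of ribosome assembly probes, 48.2% of translation factor probes, 36.0% of mTOR and Myc probes and 46.7% of Rps6k kinase probes, against 73.5% of the members and 22.5% of all tested probes. Their shares of called probes were 73.5%, 78.4%, 67.9%, 76.0% and 66.7% in the same order, against 41.0% of the members and 79.7% of all tested probes. The lists were not matched to the members in signal. Of 98 tested probes of mitochondrial ribosomal proteins, 57 were higher in V/SVZ, with 15 higher in CP (median 0.20), the called probes running from Mrps14 (1.25 ± 0.04 SE) to Mrps6 (-0.56 ± 0.03 SE). Ribosome assembly genes had 34 higher in V/SVZ, with 24 higher in CP of 74 (median 0.10), from Ltv1 (1.36 ± 0.06 SE), a small-subunit assembly factor, to Nip7 (-1.69 ± 0.03 SE), a large-subunit one. Both medians stayed positive under all scalings. Translation factors had 15 higher in V/SVZ, with 23 higher in CP of 56 (median -0.06, positive with median scaling, cyclic loess and no scaling), from Eef1d (0.91 ± 0.07 SE) to the neuronal elongation factor Eef1a2 (-4.83 ± 0.09 SE). The mTOR and Myc list had 4 higher in V/SVZ, with 15 higher in CP of 25, from Eif4ebp1 (1.72 ± 0.11 SE), the translational repressor, to Myc (-2.47 ± 0.05 SE). Of 15 probes of Rps6k kinases, 4 were higher in V/SVZ and 6 in CP, from Rps6ka6 (1.14 ± 0.05 SE) to Rps6kl1 (-2.46 ± 0.07 SE).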

How the data were processed

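Per the labels' protocols, 100 ng of total RNA was amplified and labelled with Cy3 for 1-colour Agilent arrays. The deposited intensity values are processed signals from Feature Extraction 10.7.1.1, per the file headers, which name build mm9 for the array design. The authors also deposited log2 values for 17163 gene probes. Each of its columns tracks, among the arrays, the one with its number in the opposite tissue (correlation about 0.999997), so these served only as an alternative, with the direction turned; scale between arrays stays unknown.

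Spots were averaged without outlier-flagged ones (142 to 258 per array). For the main values, each array's 75th percentile (2113 to 2566 units) was subtracted from the log2 processed signal on the log2 scale; printed signals are these put back on the intensity scale. Probes well above background on all 4 arrays of a tissue, with values on at least 3 arrays of each, were tested with limma 3.58.1 (R 4.3.3). The number of arrays limits the precision. Symbols came from a RefSeq table of GRCm38.p6, by accession, which named 26761 probes and left 12668 unnamed. Groups and replicate numbers came from the sample titles. Same-numbered arrays deviated together (correlations 0.34, 0.31, 0.12 and 0.21), so a replicate block was an alternative. On simulated data of 23858 probes, 50 probes were changed at each size and most were left unchanged. The procedure called 22% of log2 changes of 0.25, 64% of 0.5, 74% of 1 and 94% of 2. In the data 79.7% of tested probes were called. Adjusted p-values depend on that share, so the simulated shares do not give the sensitivity here.

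The members and gene lists were chosen with earlier results of these data known. Named were the 5 largest called differences in each direction on probes detected on all 8 arrays, genes with probes called in opposite directions, the 3 genes with the largest called probe disagreement, paralog pairs, the 5 brightest and the 3 probes nearest 0, and from each related list the largest called difference in each direction. Some genes that this rule names are not reported here. Other probes were named after their values were seen. Alternatives covered scaling, background, filters, flagged spots, variance model, array weights, the block, the deposited table and each array left out.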

Additional observations from a re-analysis of the deposited data

Results flagged for a closer look

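For each tested member, the 4 values of a tissue were searched for a single array far from the other 3. Among 332 such groups 23 had one. Chance alone flags about 1 in 20 groups, so many of the 23 may be chance flags. The 8 among the probes named above follow.

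Arrays of V/SVZ stood apart 5 times. Rpl23 probe A_55_P1961235 read 106920.0 on V/SVZ 1, Rplp0 probe A_55_P2135098 332655 on V/SVZ 1, and Rps27 probe A_55_P2163622 168570.0 on V/SVZ 3. On V/SVZ 4, Rps15a probe A_55_P2109943 read 94249.7 and Rps4x probe A_55_P1960764 58110.1. All 5 lay below the other V/SVZ arrays.

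Arrays of CP stood apart 3 times. Rpl14 probe A_55_P2070913 read 265156 on CP 1, above the other CP arrays. Rpl6 probe A_55_P2043639 read 70.7 on CP 1 and Rpl17 probe A_55_P2181084 67937 on CP 3, each below the other CP arrays. Values are scaled intensity units.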

How the results depend on the processing

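The direction of the balance between tissues followed the scaling. Calls higher in CP numbered 6 with median scaling, 15 with quantile normalization, 16 with cyclic loess and 5 without scaling, against 25. Calls higher in V/SVZ numbered 68 with quantile normalization, 66 with cyclic loess, 122 without scaling and 21 with spike-in scaling, against 43, and all calls numbered 127 without scaling, against 68. The shares over all tested probes under each scaling are given in the Results. The median member difference was 0.11 with median scaling, 0.066 with the percentile over detected probes, 0.082 with quantile normalization, 0.23 without scaling, 0.066 with cyclic loess and -0.048 with spike-in scaling, against 0.02. The scalings that move every probe by 1 amount per array shift the members with all other probes; the cause of the remaining differences was not tested. With 1 array left out, 56 to 81 probes were called, 36 to 56 higher in V/SVZ and 20 to 25 higher in CP, with medians of 0.01 to 0.04. Of all tested probes, 76.5% to 80.1% were then called. With the replicate block, V/SVZ had 43 calls and CP 22, against 35.5% and 44.8% of all tested probes. The number of differing probe pairs, 45, ranged from 34 to 56.

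Without scaling, differences turned positive for Rpl37 (0.13), Rpl39 probe A_55_P1957291 (0.037), Rpl7 probes A_55_P2073840 (0.070) and A_55_P2126470 (0.078), Rplp2 (0.21), Rps27 probe A_55_P2155438 (0.18), Rpl23a probe A_55_P2109874 (0.015), Rpl35 (0.012), Rack1 (0.032) and Fau (0.14). Rpl37 also turned with median scaling (0.0070) and Rplp2 with normexp (0.13). Of 1729 alternative values for 79 named probes, 1569 kept their side of the threshold, 97 lost the call, 51 gained one, and 12 changed sign with a call in the main or the alternative setting. Of the 1569, 56 changed sign without being called in either; counting both kinds, 68 values of 25 probes changed sign. The counts over probes detected on all 8 arrays, of gene calls and of probe pairs, were added after the values were seen.

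Leaving out 1 array also lowers the number of samples, and the part of each was not tested. Further calls changed when 1 array was left out. Lost were those of Rpl37 without any 1 array but V/SVZ 1, Rpl7 probe A_55_P2073840 without V/SVZ 1, V/SVZ 2, CP 2 or CP 3 (-0.13 to -0.11), Rps27 probe A_55_P2024322 without CP 1, CP 2 or CP 4 (-0.25 to -0.24), and Rpl35 without V/SVZ 2, CP 2, CP 3 or CP 4 (-0.20 to -0.19). Gained were Rpl6 probe A_55_P2042426 (0.09) and Rps3 probe A_51_P318640 (0.13) without V/SVZ 3, Rps4l without V/SVZ 3 or CP 4 (0.40), and Rpl23 probe A_55_P1961235 without V/SVZ 3 (-0.45).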
